A study of Mus musculus with 4 samples.

Results

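Collagen genes were described here as every gene symbol of the deposited gene table made of Col, a type number, the letter a and a chain number. This rule found 44 of 32285 genes, and it used no measured value. The genes were followed in 4 single-cell RNA libraries of mouse skin, 1 library per group, each made from the pooled ear and neck skin of 3 female C57BL/6J mice aged 6 to 8 weeks. In the MC903 library, skin received 1 nmol MC903 (calcipotriol, a vitamin D analog that gives mice a dermatitis) in 100 µL ethanol daily and was taken on day 9. In the oxazolone libraries, mice were sensitised with 3% oxazolone, a contact hapten, challenged with 1.0% oxazolone every other day from 7 days later in acetone and mineral oil, and sampled on day 16 or on day 10. Untreated mice gave the fourth library. Skin was digested with collagenase at 1 mg/mL for 1 h at 37 °C, dead cells were removed, and no vehicle library was analysed here, so the agents cannot be told apart from their vehicles. The series title places the study in type 2 skin inflammation, and the comparison made here asks in which cells each collagen gene was transcribed and how its level differed between the treated and the untreated skin.

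Collagens are proteins with a triple helix made of 3 chains, which may be copies of 1 gene's product or come from several genes. Types I, III and V build the fibrils of the dermis, types II, IX and XI those of cartilage, type IV the network of basement membranes, type VI beaded filaments, and types XII and XIV coat fibrils. Type VII anchors the epidermis to the dermis, type XVII spans the membrane of basal keratinocytes at hemidesmosomes, and types XIII, XXIII and XXV are membrane proteins as well. Fibroblasts are the main source of fibrillar collagen in skin, and the mouse ear holds a plate of elastic cartilage wrapped in a perichondrium.

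After filtering, 3714 cells of the MC903 library, 7390 of oxazolone day 16, 7723 of oxazolone day 10 and 7224 of untreated skin were kept. Total counts of unique molecular identifiers (UMIs, each a captured RNA molecule) per library lay between 73054242 and 119717836. Pairs of libraries shared 5 to 16 cell barcodes. Cells were grouped into 54 clusters from genes other than collagens, and clusters were named from marker genes with the ending "-like". 5 clusters with 922 cells stayed unnamed. All 8 fibroblast markers, among them Pdgfra and Dpt, had UMIs in the fibroblast-like cells of every library, and Matn1, a cartilage matrix gene, was at 0 in chondrocyte-like cells of all libraries but oxazolone day 10. Levels are CPM, the UMIs of a gene scaled by all UMIs of its class in that library. Each RNA molecule gives 1 tag at its 3′ end, so levels were not divided by transcript length. With 1 library per group there is no replicate error and no p-value: intervals are 95% and cover counting error only, and a difference between libraries may be a difference between pools of mice. A gene counted as measured in a pair of libraries with at least 30 UMIs over both, and a difference of 2-fold or more is what higher and lower mean in the counts below.

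The 44 genes lay on 15 chromosomes of the mouse genome (GRCm38, the build called mm10). 9 pairs of them lay within 200 kb of each other, and 3 of these pairs were head to head, their starts facing away from one another: Col4a4 and Col4a3 on chromosome 1 with 72 bases between their starts, Col4a1 and Col4a2 on chromosome 8 with starts 21 bases apart and overlapping, and Col4a6 and Col4a5 on chromosome X with 1309 bases between. RefSeq promoters (GRCm38.p6) were found for 35 of the 44 genes, as 38 promoters. The 250 bases before the start were searched on both strands for the TATA box letters TATAAA, for the CCAAT box and for the GC box letters GGGCGG, which share no overlap with one another. GGGCGG was present in 22 of the 38 collagen promoters (57.9%) and in 32.7% of all 32851 promoters. CCAAT was in 13 (34.2%) and 33.8%, and TATAAA in 5 (13.2%) and 12.4%. The promoters below belong to Col3a1, the highest collagen gene of fibroblast-like cells in both oxazolone libraries; Col8a1, the highest of cartilage; and Col10a1, Col25a1 and Col7a1, whose levels differed in opposite directions on oxazolone day 16 and day 10. Capitals mark the motifs on either strand, and each sequence is written 5′ to 3′ on its gene's strand. They span chr1:45311288-45311537 (plus strand), chr16:57754738-57754987 (minus), chr10:34389731-34389980 (plus), chr3:130180595-130180844 (plus) and chr9:108953336-108953585 (plus). The Col25a1 window lies inside the gene, which begins at chr3:130131501, so it precedes another start of that gene. Levels were counted per gene and were not assigned to a start.
Col3a1 promoter: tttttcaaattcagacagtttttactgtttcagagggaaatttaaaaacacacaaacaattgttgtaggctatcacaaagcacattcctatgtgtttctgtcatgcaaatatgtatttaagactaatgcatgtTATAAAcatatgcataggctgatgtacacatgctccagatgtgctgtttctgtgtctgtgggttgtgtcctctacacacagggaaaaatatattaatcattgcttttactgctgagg
Col8a1 promoter: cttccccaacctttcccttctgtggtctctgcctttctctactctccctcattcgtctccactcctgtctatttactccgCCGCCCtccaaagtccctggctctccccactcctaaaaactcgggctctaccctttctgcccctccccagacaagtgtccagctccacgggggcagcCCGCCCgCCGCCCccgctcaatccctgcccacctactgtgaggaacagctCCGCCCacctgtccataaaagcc
Col10a1 promoter: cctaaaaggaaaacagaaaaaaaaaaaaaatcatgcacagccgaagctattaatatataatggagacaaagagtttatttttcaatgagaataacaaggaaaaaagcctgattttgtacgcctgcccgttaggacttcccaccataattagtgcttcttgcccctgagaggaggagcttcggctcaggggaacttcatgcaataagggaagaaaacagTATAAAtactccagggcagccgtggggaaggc
Col25a1 promoter: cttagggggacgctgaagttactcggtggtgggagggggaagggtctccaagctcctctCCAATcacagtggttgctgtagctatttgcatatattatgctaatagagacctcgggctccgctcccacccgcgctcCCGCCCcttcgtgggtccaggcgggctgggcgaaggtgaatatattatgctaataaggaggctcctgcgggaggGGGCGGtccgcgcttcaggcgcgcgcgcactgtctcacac
Col7a1 promoter: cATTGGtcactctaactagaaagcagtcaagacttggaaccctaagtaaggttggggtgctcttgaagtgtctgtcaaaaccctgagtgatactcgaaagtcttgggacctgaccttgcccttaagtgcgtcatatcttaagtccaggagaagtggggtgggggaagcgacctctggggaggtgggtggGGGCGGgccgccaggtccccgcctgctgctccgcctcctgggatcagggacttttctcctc
TATAAA began 32 bases before the start of Col10a1 and 117 bases before that of Col3a1. The Col8a1 promoter held GGGCGG 4 times, and those of Col25a1 and Col7a1 held both GGGCGG and CCAAT. A match describes the letters of this window only.

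Every collagen gene had at least 1 UMI. Taking for each gene the class and library with its highest level (classes of at least 10 cells), 35 of the 44 genes reached 100 CPM and 42 reached 10 CPM, while Col6a4 (7.31 CPM, mural-like) and Col22a1 (2.32 CPM, perichondrium-like) stayed below. These are levels over named classes only: the unnamed cluster B20 (55 cells with MC903, 196 on oxazolone day 16, 2 on oxazolone day 10 and 0 in untreated skin; led by Cntnap2, Dpp10 and Lrp1b, with a median of 815 UMIs per cell) had the highest level of any non-leukocyte cluster for 9 collagen genes. Over its cells of all libraries these were Col4a6 (258 CPM), Col25a1 (221), Col19a1 (193), Col26a1 (121), Col22a1 (105.6), Col4a3 (83.9), Col6a4 (65.2), Col6a6 (62.1) and Col4a4 (49.7). The highest class was chondrocyte-like for 13 genes, fibroblast-like for 8, mural-like for 7, Schwann-like for 5, keratinocyte-like for 3, and perichondrium-like, dermal papilla-like and blood endothelial-like for 2 each. For the other two, the highest level stood in small leukocyte classes of untreated skin: Col7a1 in 25 neutrophil-like cells (120.4 CPM) and Col4a3 in 22 mast-like cells (23.3 CPM). In 24 of the 44 genes the highest class was the same in all 4 libraries. The 7 classes in the map of levels together show a fibrillar block in fibroblast-like cells, a cartilage block in 2 classes, and single-gene peaks elsewhere.

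**Figure D1:**
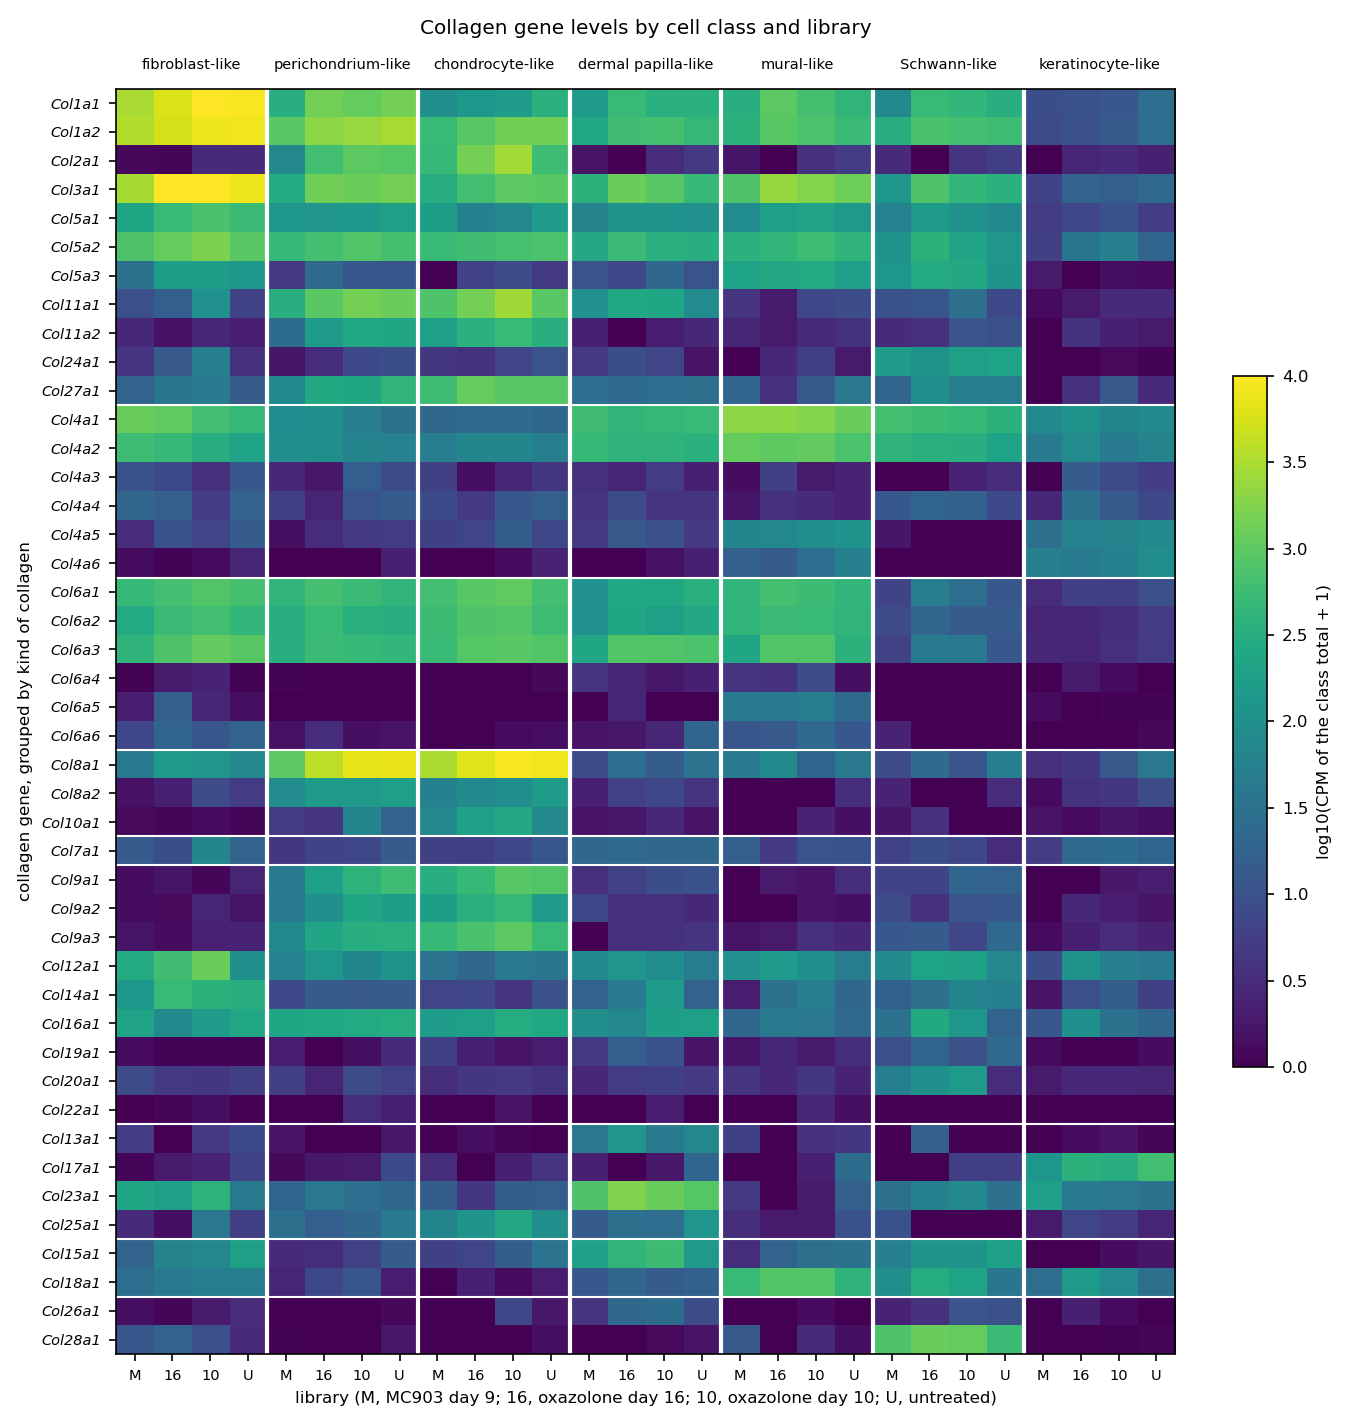
Levels of the 44 collagen genes (rows, grouped by kind of collagen) in 7 cell classes and 4 libraries (columns), as log10 of CPM + 1. Col1a1, Col1a2 and Col3a1 are brightest in fibroblast-like cells, Col8a1 in chondrocyte-like and perichondrium-like cells, and Col17a1 is bright in keratinocyte-like cells only among the classes drawn.

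Fibroblast-like cells held 74.4% of all collagen UMIs of the MC903 library, 71.6% of oxazolone day 16, 54.1% of oxazolone day 10 and 69.6% of untreated skin. Collagen made up 1.46% of the UMIs of fibroblast-like cells with MC903 (1030 cells), 2.92% on oxazolone day 16 (299 cells), 4.06% on oxazolone day 10 (324 cells) and 3.07% in untreated skin (1595 cells). The share was thus lowest with MC903 and highest on oxazolone day 10. Of the 44 genes, 39 were measured in each of the 3 comparisons with untreated skin. With MC903, 6 were higher and 18 lower, where 9.61% of all 14564 genes measured were higher and 10.7% lower. The median log2 ratio was -0.78 over the collagen genes and 0.04 over all genes. On oxazolone day 16, 10 were higher and 12 lower, against a background of 9.01% and 14.5% of 13826 genes, with medians of -0.24 and -0.18. On oxazolone day 10, 9 were higher and 8 lower, against 8.69% and 8.94% of 13816 genes, with medians of 0.29 and -0.06. The 3 comparisons share the untreated library. Setting oxazolone day 16 against day 10, 4 of 32 collagen genes were higher and 7 lower (background 4.12% and 7.91%), and setting MC903 against oxazolone day 16, 4 of 33 were higher and 12 lower (18.2% and 12.2%).

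Different clusters made up this class in different libraries, and the clustering used no collagen gene. The MC903 cells were mostly clusters B7 (543 cells, led by Cxcl13 and Inmt) and B15 (391 cells, led by Ccbe1 and Cyp26b1). Oxazolone cells were mostly B8 (241 cells on day 16 and 273 on day 10, led by Cxcl5, Saa3 and Tnc), and untreated cells mostly B4 (651, led by Cdh4 and Pi16), B13 (421, led by Cilp and Postn) and B10 (387). Cluster B10, led by Clec3b, Dpt and Mfap5, was the one fibroblast-like cluster with at least 20 cells in every library: 35 with MC903, 50 on oxazolone day 16, 32 on oxazolone day 10 and 387 in untreated skin. Within it, collagen took 1.39% of UMIs with MC903, 2.68% on oxazolone day 16, 3.98% on oxazolone day 10 and 2.10% in untreated skin. The order of the 3 treated libraries in B10 was that of the whole class, and oxazolone day 16 lay above untreated skin in B10 but below it in the class. Median UMIs per fibroblast-like cell were 24264 with MC903, 39950.0 on oxazolone day 16, 31186 on oxazolone day 10 and 13121 in untreated skin. The 6 neutrophil markers, all with UMIs in every library, summed to 33.5 CPM in MC903, 330.2 in oxazolone day 16, 91.2 in oxazolone day 10 and 5.41 in untreated fibroblast-like cells. The part of these markers in the collagen levels was not tested. Chains of type I collagen themselves were low in leukocytes: the highest Col1a1 level of any leukocyte class of at least 50 cells was 34.3 CPM with MC903, 33.7 on oxazolone day 16, 28.5 on oxazolone day 10 and 54.3 in untreated skin.

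**Figure D2:**
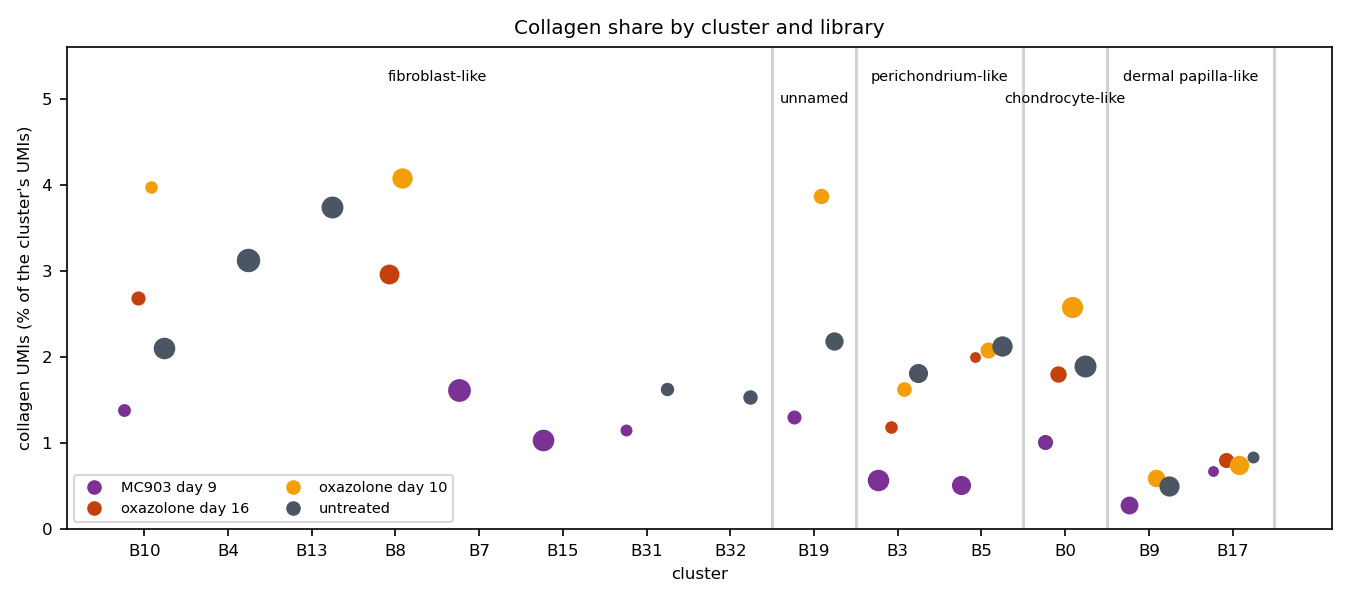
Collagen UMIs as a percent of all UMIs (y axis) in each stromal and cartilage cluster (x axis) and library (colour), for clusters with at least 20 cells in that library; a larger point holds more cells. In B10 the values run from 1.39% with MC903 to 3.98% on oxazolone day 10, and both perichondrium-like clusters are lowest with MC903.

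The chains of type I and type III collagen, the main fibrils of the dermis, were lower with MC903. Col1a1 had 3159.6 CPM in MC903, 6013 CPM in oxazolone day 16, 9871 CPM in oxazolone day 10 and 9042 CPM in untreated fibroblast-like cells. Its log2 ratio to untreated was -1.52 (-1.53 to -1.51) with MC903, -0.59 on oxazolone day 16 and 0.13 on oxazolone day 10. Col1a2, the second type I chain, had 3516 CPM with MC903, 5621 on oxazolone day 16, 7883 on oxazolone day 10 and 8289 in untreated skin, a log2 ratio of -1.24 (-1.25 to -1.23) for MC903. Col3a1 had 2896 CPM with MC903, 10475 on oxazolone day 16, 14242 on oxazolone day 10 and 7955 in untreated skin, with log2 ratios of -1.46 (-1.47 to -1.45), 0.40 and 0.84. Type III was therefore below untreated skin with MC903 and above it in both oxazolone libraries, while type I was above it on oxazolone day 10 only for Col1a1. Per UMI of Col1a1 there were 0.916 of Col3a1 with MC903, 1.74 on oxazolone day 16, 1.44 on oxazolone day 10 and 0.880 in untreated cells. Within the clusters closest to fibroblasts that every library held (B10 and the unnamed B19, a choice made after seeing the data), there were 83 MC903, 58 oxazolone day 16, 104 oxazolone day 10 and 543 untreated cells. The mix of B10 and B19 differed between libraries. B10 gave 50 of the 58 day 16 cells and 387 of the 543 untreated cells, while B19 gave 72 of the 104 day 10 cells. The part of this mix in the ratios given for these clusters, here and below, was not tested. In them the MC903 log2 ratio was -0.78 for Col1a1, -0.63 for Col1a2 and -1.23 for Col3a1, so that type I no longer passed 2-fold in the pool. Within B19 alone Col1a1 had 2342 CPM with MC903 and 5485 in untreated cells, a difference past 2-fold. Col1a2 had 2316 CPM with MC903 and 4440 in untreated cells there, which was not past 2-fold.

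The minor fibrillar chains differed among themselves. Type V collagen sits in type I fibrils and sets their width. Col5a1 had 228 CPM with MC903, 518 on oxazolone day 16, 702 on oxazolone day 10 and 533 in untreated cells (log2 ratio -1.23 for MC903, -1.27 to -1.18). Col5a2 had 762, 1124, 1598 and 947 CPM in MC903, oxazolone day 16, oxazolone day 10 and untreated cells, and no ratio to untreated reached 2-fold. Col5a3 fell to 31.02 CPM with MC903, against 135 CPM in untreated cells (log2 ratio -2.12, -2.23 to -2.01), and had 169.9 CPM on oxazolone day 16 and 165 on oxazolone day 10. Of the fibrillar chains otherwise found in cartilage or bone, some were higher and some lower in the oxazolone libraries. Those higher, grouped after their values were seen, were Col11a1, Col24a1 and Col27a1. Col11a1, a chain of cartilage type XI, had 8.53 CPM with MC903, 14.5 on oxazolone day 16, 106 on oxazolone day 10 and 5.50 in untreated cells, a log2 ratio of 4.27 (3.99 to 4.55) on oxazolone day 10 and 1.40 on day 16. The day 16 ratio was -0.48 with doublets kept. Col24a1, a fibrillar collagen of bone, had 3.09 CPM with MC903, 12.1 on oxazolone day 16, 51.3 on oxazolone day 10 and 2.61 in untreated cells (4.29, 3.90 to 4.71, on day 10; 2.21 on day 16). Col27a1, known from cartilage, had 18.1, 36.0, 44.3 and 13.02 CPM in MC903, oxazolone day 16, oxazolone day 10 and untreated cells. The 3 genes were thus highest on oxazolone day 10. In the clusters held by every library the day 16 log2 ratios were 0.08 for Col11a1, 0.18 for Col24a1 and 0.37 for Col27a1, and those of day 10 were 3.19, 2.35 and 1.16. Within B19 alone Col11a1 had 778 CPM on day 16, 1339 on day 10 and 381 in untreated cells. In the same order Col24a1 had 109, 79.4 and 41.0 CPM and Col27a1 had 32.2, 60.2 and 25.4 CPM. Col2a1, the main chain of cartilage type II, was at most 2.04 CPM in fibroblast-like cells and lay at or under the highest leukocyte level of each library. Its log2 ratio was -3.54 (-6.63 to -1.60, from 2 UMIs) on oxazolone day 16 and 0.05 on day 10, and it was lower with MC903 as well.

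**Figure D3:**
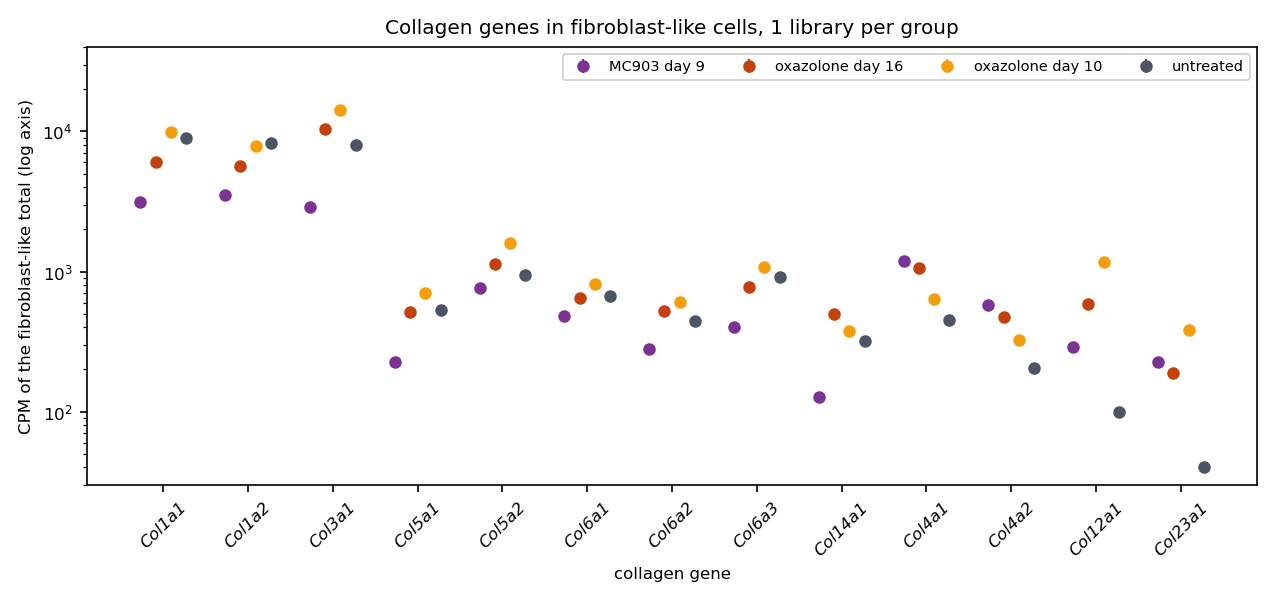
CPM (log axis) of 13 collagen genes in fibroblast-like cells; each point is 1 library and its 95% counting interval is mostly smaller than the point. MC903 lies below the other 3 libraries for Col1a1, Col1a2, Col3a1, Col5a1 and Col14a1 and above them for Col4a1 and Col4a2, while Col12a1 and Col23a1 are lowest in untreated cells.

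Basement membrane chains Col4a1 and Col4a2, which assemble together and share a promoter region, differed in the other direction. Col4a1 rose to 1186 CPM in MC903 and 1052 CPM in oxazolone day 16 cells, against 453 CPM in untreated cells, and had 635 CPM on oxazolone day 10. The log2 ratios were 1.39 (1.35 to 1.42), 1.21 (1.18 to 1.25) and 0.49. Col4a2 had 581 CPM with MC903, 477 on oxazolone day 16, 323 on oxazolone day 10 and 204 in untreated cells, with log2 ratios of 1.51, 1.22 and 0.66. The 2 genes kept a near constant proportion: 2.04, 2.20, 1.97 and 2.22 Col4a1 UMIs per Col4a2 UMI in MC903, oxazolone day 16, oxazolone day 10 and untreated cells. Markers of smooth muscle, a cell type rich in both chains, summed to 53.2 CPM with MC903, 45.05 on oxazolone day 16, 133 on oxazolone day 10 and 64.8 CPM in untreated fibroblast-like cells, with UMIs for 6 to 8 of 8 genes. The 7 pericyte markers summed to 72.0 CPM with MC903, 43.2 on oxazolone day 16, 57.0 on oxazolone day 10 and 193 in untreated fibroblast-like cells. Cluster B18, the pericytes, had the highest Col4a1 of any non-leukocyte cluster (2687 CPM over all libraries). The 6 perichondrium markers, led by Mgp and on day 16 by Prg4, summed to 1734 CPM with MC903, 1188 on oxazolone day 16, 629.8 on oxazolone day 10 and 332 in untreated fibroblast-like cells. The part of these markers in the Col4a1 and Col4a2 levels was not tested. In the clusters held by every library the MC903 log2 ratio was 0.87 for Col4a1 and 1.01 for Col4a2, and the day 16 ratios were 0.07 and -0.18. The other type IV chains were low. Col4a3 had 9.27, 6.77, 2.43 and 11.1 CPM and Col4a4 had 19.7, 15.9, 4.27 and 16.8 CPM in MC903, oxazolone day 16, oxazolone day 10 and untreated cells. Both were lower on oxazolone day 10 (log2 ratios -2.19 and -1.97). Col4a5 had 2.23, 9.31, 5.82 and 13.8 CPM in MC903, oxazolone day 16, oxazolone day 10 and untreated cells and was lower with MC903 (-2.62) and on oxazolone day 10 (-1.24). Col4a6 was at most 1.61 CPM and was lower in every treated library, at or under the highest leukocyte level.

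Beaded filament chains of type VI followed type I in part. Col6a1 had 479.7, 643, 819.6 and 665 CPM, Col6a2 had 281, 523, 609 and 445 CPM, and Col6a3 had 401, 774, 1084 and 917 CPM in MC903, oxazolone day 16, oxazolone day 10 and untreated fibroblast-like cells. Only Col6a3 passed 2-fold, with a log2 ratio of -1.19 (-1.23 to -1.16) for MC903. Col6a3 UMIs per Col6a1 UMI numbered 0.836 with MC903, 1.20 on oxazolone day 16, 1.32 on oxazolone day 10 and 1.38 in untreated cells. Among the rarer chains, Col6a5 had 1.15 CPM with MC903, 15.7 on oxazolone day 16, 1.65 on oxazolone day 10 and 0.413 in untreated cells, so it stood out on day 16 (log2 ratio 5.25, 4.29 to 6.40, from 185 UMIs against 9). Col6a6 had 6.11, 19.5, 10.8 and 18.02 CPM in MC903, oxazolone day 16, oxazolone day 10 and untreated cells and was lower with MC903 (-1.56). Col6a4 had at most 15 UMIs in a library and was not measured.

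Among collagens that coat fibrils, types XII and XIV, which bind type I fibrils in skin, moved apart. Col12a1 had 287 CPM with MC903, 588 on oxazolone day 16, 1166 on oxazolone day 10 and 99.1 in untreated fibroblast-like cells. It was higher in all 3 treated libraries, with log2 ratios of 1.54 (1.47 to 1.60) for MC903, 2.57 (2.50 to 2.64) for day 16 and 3.56 (3.49 to 3.62) for day 10. Within the clusters held by every library the ratios were 0.84, -0.59 and 2.30, so that on this choice only oxazolone day 10 passed 2-fold and day 16 changed sign. Within B19 alone Col12a1 had 607 CPM with MC903, 804 on day 16, 1667 on day 10 and 594 in untreated cells. Day 16 thus lay above untreated skin within B19, from 125 UMIs. The part of the mix of B10 and B19 in the pooled sign was not tested. Col14a1 had 127 CPM with MC903, 496 on oxazolone day 16, 374 on oxazolone day 10 and 318 in untreated cells. It was lower with MC903 (-1.32, -1.38 to -1.26). Col16a1 had 200.4, 82.4, 155 and 243 CPM in MC903, oxazolone day 16, oxazolone day 10 and untreated cells and was lower on day 16 (-1.56). The type IX chains of cartilage were at most 1.56 CPM: Col9a1 was lower in all 3 treated libraries, Col9a3 was lower with MC903 and on day 16, and Col9a2 was higher on day 10 (1.17, 0.06 to 2.29, from 16 UMIs against 15), each at or under the highest leukocyte level of the library where it was higher.

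Of the transmembrane collagens, Col23a1 had 226 CPM with MC903, 189 on oxazolone day 16, 381 on oxazolone day 10 and 40.4 in untreated fibroblast-like cells, with log2 ratios of 2.49 (2.39 to 2.59) for MC903, 2.23 (2.11 to 2.34) for day 16 and 3.24 (3.13 to 3.34) for day 10. In the clusters held by every library the ratios were 0.97 for MC903, -0.34 for day 16 and 1.60 for day 10. Col25a1, known from the innervation of muscle, had 1.97 CPM with MC903, 0.423 on oxazolone day 16, 37.9 on oxazolone day 10 and 4.72 in untreated cells: it was 3.00 (2.69 to 3.33) above untreated on the log2 scale on day 10 and -3.48 (-5.13 to -2.21, from 5 UMIs) on day 16. Its MC903 ratio was -1.26 over the class and 1.72 in the clusters held by every library. Col13a1 had no UMI in oxazolone day 16 cells, against 150 UMIs in untreated cells (log2 ratio at most -4.76, with a floor of 3 UMIs over the class of that library), and had 4.10 CPM with MC903, 3.69 on day 10 and 6.88 in untreated cells. Col17a1 was at most 5.27 CPM here, was highest in untreated cells and was lower in every treated library. With free RNA subtracted its day 16 log2 ratio was 1.03. The 6 basal keratinocyte markers summed to 57.6 CPM in untreated cells, against 9.61 with MC903, 9.15 on oxazolone day 16 and 15.9 on oxazolone day 10. The part of these markers in the result was not tested.

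Of the remaining genes, Col15a1, which lies where basement membranes meet fibrils, had 18.1 CPM with MC903, 60.2 on oxazolone day 16, 68.9 on oxazolone day 10 and 189 CPM in untreated fibroblast-like cells. It was lower in all 3 treated libraries (log2 ratios -3.39, -1.65 and -1.46), and in the clusters held by every library the ratios were -1.93, -0.77 and -0.05. Col18a1, whose cleavage gives endostatin, had 26.8, 40.4, 48.4 and 51.3 CPM in MC903, oxazolone day 16, oxazolone day 10 and untreated cells, with no ratio past 2-fold. Col7a1, the anchoring fibril gene, had 12.9 CPM with MC903, 8.13 on oxazolone day 16, 65.9 on oxazolone day 10 and 17.7 in untreated cells, higher on day 10 (1.89, 1.71 to 2.08) and lower on day 16 (-1.13, -1.46 to -0.80). Col8a1 had 42.2, 146, 123 and 72.5 CPM in MC903, oxazolone day 16, oxazolone day 10 and untreated cells and was higher on day 16 (1.01, 0.92 to 1.11). Its partner Col8a2, at most 7.09 CPM, was lower with MC903 (-2.89) and on day 16 (-1.70). Col28a1 had 10.8, 17.4, 8.64 and 2.11 CPM in MC903, oxazolone day 16, oxazolone day 10 and untreated cells and was higher in all 3 treated libraries (2.35, 3.05 and 2.03). Col26a1, at most 2.25 CPM, was lower in all 3 (-2.21, -3.73 and -1.21). Its day 10 ratio changed sign, to 0.29 with classes taken from markers per cell and to 0.68 with doublets kept. Among the called genes of the class, those that did not exceed the highest leukocyte class even in the library where they were higher numbered 0 of 6 higher and 5 of 18 lower with MC903. They numbered 0 of 10 and 5 of 12 on oxazolone day 16, and 1 of 9 and 3 of 8 on oxazolone day 10.

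**Figure D4:**
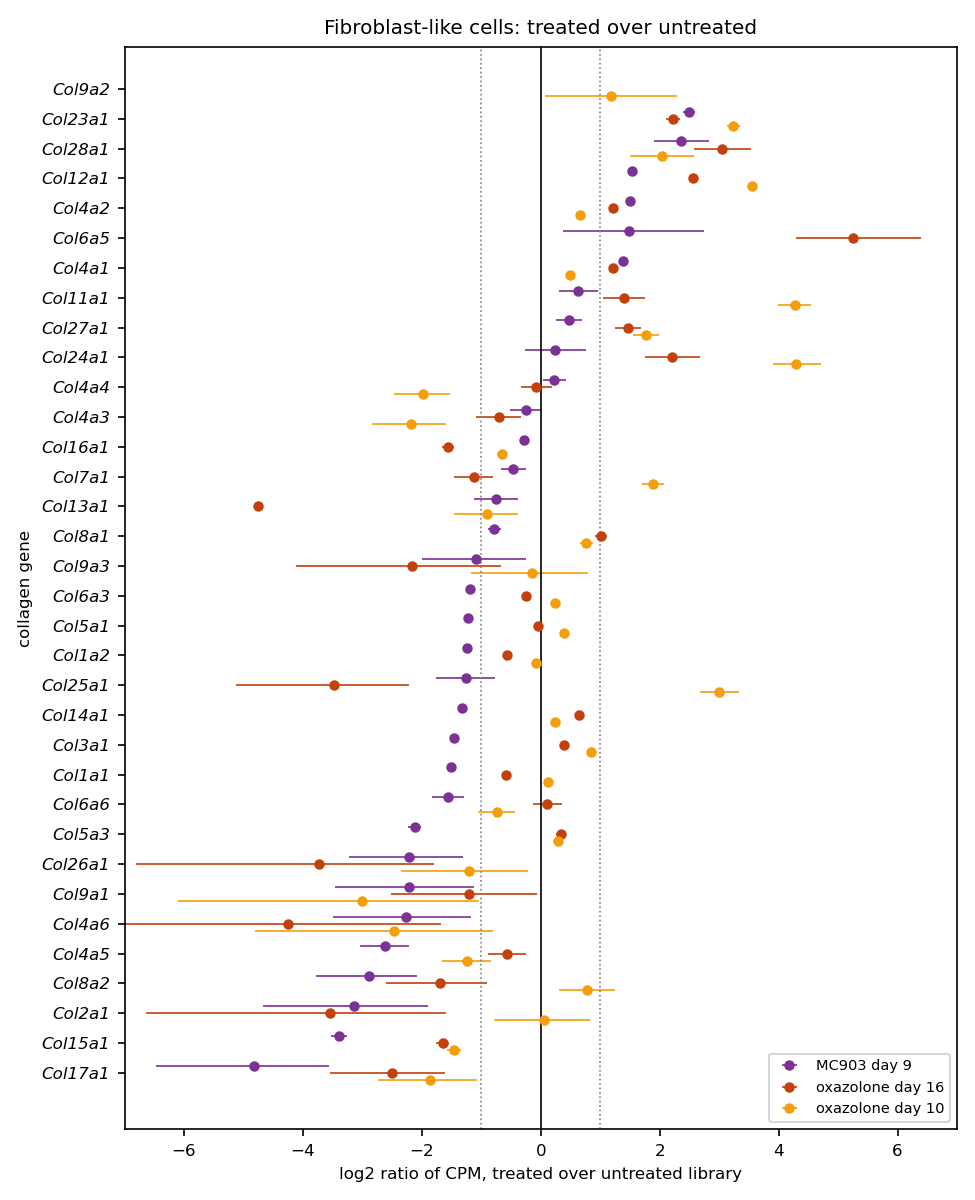
Log2 ratio of CPM in each treated library to untreated skin (x axis) in fibroblast-like cells for the 34 collagen genes past 2-fold in at least 1 comparison (y axis, ordered by the MC903 ratio); bars are 95% counting intervals, drawn to -7 at most, a bound has no bar, and dotted lines mark 2-fold. Col12a1, Col23a1 and Col28a1 lie right of the upper line in all 3 libraries and Col15a1 left of the lower one.

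Genes that make and assemble collagen were read from 5 lists of 50 genes in all. Over all measured genes of fibroblast-like cells, 9.61% were higher and 10.7% lower with MC903, 9.01% and 14.5% on oxazolone day 16, and 8.69% and 8.94% on oxazolone day 10, and 1 gene of 8 is a share near these. The crosslinking list held the 5 lysyl oxidases, which join collagen molecules: 1 of 5 was higher and 0 lower with MC903 (median log2 ratio 0.15), 3 and 0 on oxazolone day 16 (1.11), and 2 and 0 on oxazolone day 10 (0.93). Lox had 1052 CPM with MC903, 609 on oxazolone day 16, 577 on oxazolone day 10 and 138 in untreated fibroblast-like cells (log2 ratios 2.93, 2.14 and 2.07). Lox was thus highest with MC903, where Col1a1 was lowest. Among 19 genes of chain hydroxylation, glycosylation and folding, 1 was higher and 3 lower with MC903 (median -0.32), 3 and 1 on oxazolone day 16 (0.38), and 1 and 1 on oxazolone day 10 (0.43). Serpinh1, the chaperone of the collagen triple helix, had 261 CPM with MC903, against 984 in untreated cells (-1.92), and P4ha2, a prolyl hydroxylase subunit, 17.1 against 79.8 CPM (-2.22). P4ha3, another such subunit, had 23.9 CPM on oxazolone day 16 and 38.6 on oxazolone day 10, against 4.54 in untreated cells. For removal of propeptides, 1 of 8 measured genes was higher and 1 lower with MC903 (median 0.12), 2 and 3 of 7 on oxazolone day 16 (-0.01), and 1 and 1 of 7 on oxazolone day 10 (-0.03). Fibril assembly proteins had 0 higher and 2 lower of 10 with MC903 (-0.66), 1 and 3 on day 16 (-0.32), and 1 and 2 on day 10 (-0.11). Lum, the proteoglycan lumican, had 729.7 CPM with MC903 against 2128 in untreated cells (-1.54). Of 7 measured collagen receptors, 1 was higher and 2 lower with MC903 (-0.41), 1 and 0 on day 16 (-0.42), and 1 and 2 on day 10 (-0.70). The higher one was Itga1, the integrin alpha 1 chain, in all 3 comparisons, with 51.9 CPM with MC903, 72.8 on oxazolone day 16, 180.5 on oxazolone day 10 and 19.6 in untreated cells.

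Chondrocyte-like cells (cluster B0, led by Eln, Acan and Snorc; 65 with MC903, 92 on oxazolone day 16, 349 on oxazolone day 10 and 431 in untreated skin) held the highest levels of 13 collagen genes. Their main collagen was Col8a1, a short network chain known from vessels and cornea, with 3262 CPM with MC903, 6391 on oxazolone day 16, 9300.2 on oxazolone day 10 and 8327 in untreated cells. Col2a1 had 481 CPM with MC903, 1450.0 on oxazolone day 16, 2790.0 on oxazolone day 10 and 568 in untreated cells, so it was highest on oxazolone day 10 (log2 ratio 2.30, 2.24 to 2.36) and also above untreated on day 16 (1.35, 1.28 to 1.42). Col11a1 had 795, 1464, 2709.8 and 963 CPM in MC903, oxazolone day 16, oxazolone day 10 and untreated cells, and Col10a1, the collagen of hypertrophic cartilage, had 76.3, 195, 263 and 74.1 CPM in MC903, oxazolone day 16, oxazolone day 10 and untreated cells. On oxazolone day 10, 8 of 33 measured genes were higher and 4 lower (background 3.51% and 5.15% of 11940 genes): besides Col2a1, Col11a1 (1.49) and Col10a1 (1.83), the higher ones were Col9a2 (1.56), Col9a3 (1.01), Col25a1 (1.46), Col4a5 (1.19) and Col26a1 (2.97, 1.502 to 4.91, from 40 UMIs against 4). On oxazolone day 16, 3 of 31 were higher and 8 lower (2.87% and 10.9%). The largest differences were Col15a1 (-2.46), Col23a1 (-2.20), Col4a4 (-2.03) and Col24a1 (-1.75), and the higher genes were Col10a1 (1.39), Col2a1 and Col9a2 (1.17). Setting oxazolone day 16 against day 10, 1 of 33 was higher (Col14a1) and 8 lower (2.95% and 7.9%), among them Col24a1, Col25a1 and Col15a1.

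With MC903, 0 of 30 measured genes were higher in chondrocyte-like cells and 10 were lower (background 6.8% and 11.2%). Beside oxazolone day 16, MC903 had 1 of 23 higher (Col5a1) and 6 lower (13.5% and 6.73%), among them Col2a1, Col10a1 and Col9a2. The largest differences were Col15a1 (-2.79), Col1a1 (-1.89), Col3a1 (-1.62) and Col24a1 (-1.49), and Col8a1 was -1.35 (-1.41 to -1.30). Col27a1 had 565, 1148, 918 and 899 CPM, Col9a1 had 336, 483, 899.9 and 808 CPM, and Col6a1 had 632, 923, 1047 and 635 CPM in MC903, oxazolone day 16, oxazolone day 10 and untreated chondrocyte-like cells. In these cells Col1a2 exceeded Col1a1 (508 against 96.0 CPM with MC903, 925 against 134 on oxazolone day 16, 1371 against 156 on oxazolone day 10, 1357 against 355 in untreated cells). Col1a1 UMIs per Col1a2 UMI numbered 0.189 with MC903, 0.145 on oxazolone day 16, 0.113 on oxazolone day 10 and 0.261 in untreated chondrocyte-like cells, against 0.899, 1.07, 1.25 and 1.09 in fibroblast-like cells of MC903, oxazolone day 16, oxazolone day 10 and untreated skin. The proportions of the 2 type I chains thus differed between the classes beyond their counting intervals in every library. Chondrocyte markers summed to 12361 CPM with MC903, 7599.5 on oxazolone day 16, 10767 on oxazolone day 10 and 12828 in untreated cells of this class.

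Perichondrium-like cells (clusters B3, led by Angptl7, and B5, led by Msmp, Ibsp and Cytl1; 581 with MC903, 52 on oxazolone day 16, 141 on oxazolone day 10 and 471 in untreated skin) had less collagen with MC903 than in any other library. With MC903, 1 of 33 measured genes was higher and 21 were lower, where 7.96% and 9.57% of 12501 genes were. The median log2 ratio was -1.69 over the collagen genes and 0.01 over all genes. Collagen made up 0.550% of UMIs with MC903, 1.45% on oxazolone day 16, 1.89% on oxazolone day 10 and 2.00% in untreated cells. It was lowest with MC903 in each cluster: 0.568% in B3, against 1.82% in untreated cells, and 0.515% in B5, against 2.12%. Col8a1 fell to 996 CPM with MC903, against 7357 CPM in untreated cells (log2 ratio -2.89, -2.92 to -2.85), with 3960.0 CPM on oxazolone day 16 and 7216 on oxazolone day 10. Cartilage chains fell as well with MC903: Col2a1 to 73.7 CPM against 874 in untreated cells (-3.57, -3.68 to -3.45), Col9a1 to 43.2 against 581 (-3.75, -3.90 to -3.60), and Col11a2 to 25.0 against 229 (-3.20). Dermal fibril chains did so too, with Col1a1 at 317 against 1461 CPM (-2.20), Col1a2 at 946 against 3045 (-1.69) and Col3a1 at 289 against 1466 (-2.35). Col24a1 (-3.52, from 7 UMIs) and Col17a1 (-5.08, from 2 UMIs) had at most 8.17 and 6.92 CPM in any library.

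The one higher gene in MC903 perichondrium-like cells was Col4a1, with 88.2 CPM against 30.8 CPM in untreated cells (1.52, 1.26 to 1.78). Chains that did not pass 2-fold included Col6a1 (415 with MC903 against 423 CPM in untreated cells), Col6a2 (305 against 323), Col6a3 (317 against 439), Col5a2 (483 against 659) and Col16a1 (228 against 293). The 10 chondrocyte markers in this class summed to 6166 CPM with MC903, 2715 on oxazolone day 16, 9918 on oxazolone day 10 and 12929.7 in untreated cells, with Matn1 at 0 in the 3 treated libraries and Scrg1 at 0 on day 16. Their sum was lowest on oxazolone day 16 and below untreated skin with MC903 as well. Perichondrium markers summed to 14006, 8397, 8319 and 7366 CPM in MC903, oxazolone day 16, oxazolone day 10 and untreated cells, and the part of either in the collagen levels was not tested. At a clustering resolution of 0.5 the count past 2-fold was 9 of 25 and Col2a1 had a log2 ratio of 0.44. With a mitochondrial limit of 10% these were 14 of 29 and 0.12. Col9a1 was lower by more than 2-fold in every alternative run. On oxazolone day 16, 2 of 32 genes were higher and 9 lower (background 4.52% and 12.1%), and on oxazolone day 10, 1 of 33 was higher and 4 lower (2.33% and 6.08%). Col10a1 had 4.18 CPM with MC903, 3.14 on oxazolone day 16, 63.7 on oxazolone day 10 and 18.02 in untreated cells, with log2 ratios of -2.52 (-4.43 to -1.11, from 4 UMIs) on day 16 and 1.82 (1.42 to 2.23) on day 10. The largest other differences were Col4a3 (-3.26), Col17a1 (-3.14), Col4a4 (-3.09) and Col15a1 (-2.55) on day 16, each from 1 to 3 UMIs, and Col17a1 (-2.90; 0.68 with doublets kept), Col15a1 (-1.44) and Col7a1 (-1.10) on day 10. Setting oxazolone day 16 against day 10, 1 of 28 was higher and 4 lower (background 4.8% and 7.55%), and setting MC903 against oxazolone day 16, 2 of 29 were higher and 15 lower (16.9% and 7.94%), Col2a1, Col8a1 and Col9a1 among them.

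**Figure D5:**
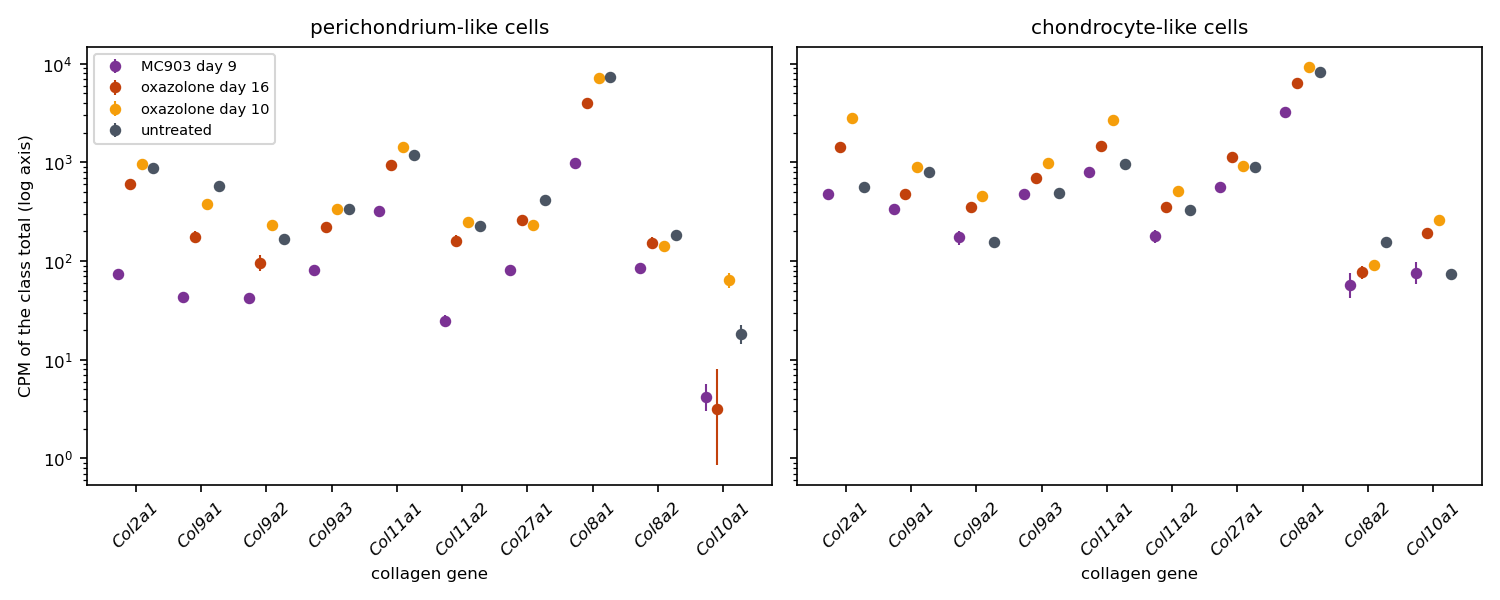
CPM (log axis) of 10 cartilage-associated collagen genes in perichondrium-like cells (left) and chondrocyte-like cells (right); points are libraries and bars 95% counting intervals. In perichondrium-like cells MC903 is lowest for 9 of the genes and next to lowest for Col10a1, and in chondrocyte-like cells oxazolone day 10 is above untreated skin for all drawn but Col8a2.

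Dermal papilla-like cells, which in hair follicles signal to the epithelium, were marked by Col23a1: 773 CPM with MC903, 1661 on oxazolone day 16, 1176 on oxazolone day 10 and 880.4 in untreated cells, the highest of any class in every library. They numbered 157 with MC903, 73 on oxazolone day 16, 332 on oxazolone day 10 and 290 in untreated skin. They were mostly cluster B17 (led by Hhip and Rspo2) with oxazolone and mostly B9 (led by Gpc5 and Slc26a7, with no papilla marker among its 10 leading genes) with MC903 and in untreated skin. Col15a1 had 196 CPM with MC903, 412 on oxazolone day 16, 544 on oxazolone day 10 and 145 in untreated cells, and Col11a1 had 104 CPM with MC903, 252 on oxazolone day 16, 233 on oxazolone day 10 and 82.9 in untreated cells. Both were higher in the oxazolone libraries. On oxazolone day 10, 7 of 29 genes were higher and 4 lower (background 7.52% and 5.67%), led by Col17a1 (-4.56), Col19a1 (3.94, from 34 UMIs against 1), Col6a6 (-3.52) and Col14a1 (3.15; 157 against 17.7 CPM). On oxazolone day 16, 6 of 25 were higher and 4 lower (5.64% and 11.6%), led by Col6a6 (-4.54), Col17a1 (at most -3.002), Col25a1 (-2.05) and Col11a1 (1.60). With MC903, 0 of 25 were higher and 8 lower (6.81% and 9.14%), led by Col6a6 (-4.89, from 1 UMI), Col17a1 (-3.93), Col25a1 (-3.18; 13.4 against 121 CPM) and Col8a1 (-2.10). With doublets kept the Col8a1 ratio was 0.0996. Within B9 alone, 0 of 21 genes were higher and 13 lower with MC903, where 7.68% and 11.2% of all genes were, and 3 of 22 were higher and 1 lower on oxazolone day 10 (2.83% and 5.50%). All 3 main type VI chains were among the lower genes, with Col6a3 at 220.0 CPM against 748 in untreated cells (-1.77). Beside oxazolone day 16, MC903 had 0 of 23 higher and 15 lower (14.1% and 7.73%), Col23a1 and the type I, III and VI chains among them, and oxazolone day 16 beside day 10 had 1 of 28 higher (Col13a1) and 3 lower (2.85% and 8.91%).

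Mural-like cells, the smooth muscle (B14) and pericytes (B18) of vessel walls, had the highest Col4a1 and Col4a2. Col4a1 had 1989 CPM with MC903, 2103 on oxazolone day 16, 1824 on oxazolone day 10 and 1245 in untreated cells, with no ratio past 2-fold. Col4a2 had 1114 CPM with MC903, 1032 on oxazolone day 16, 1102 on oxazolone day 10 and 731 in untreated cells, again with no ratio past 2-fold. The class held 217 cells with MC903, 46 on oxazolone day 16, 215 on oxazolone day 10 and 260 in untreated skin, so day 16 was not compared. Col18a1, a basement membrane collagen, had 518 CPM with MC903, 863 on oxazolone day 16, 827 on oxazolone day 10 and 399 in untreated cells, and was higher on day 10 (1.05, 0.94 to 1.17). Col3a1 had 790.2, 2358, 1780.1 and 1317 CPM, Col1a1 330.3, 967, 667 and 420.0 CPM, and Col6a3 227, 807, 833 and 373 CPM in MC903, oxazolone day 16, oxazolone day 10 and untreated mural-like cells. On oxazolone day 10, 5 of 26 genes were higher and 5 lower (background 3.56% and 4.33%). The largest were Col17a1 (-4.37), Col23a1 (-4.08), Col27a1 (-1.60) and Col14a1 (1.29). The Col23a1 ratio was 0.98 with classes taken from markers per cell, and Col27a1 was at or under the highest leukocyte level. With MC903, 2 of 26 were higher and 5 lower (3.44% and 6.57%), led by Col28a1 (4.68, 2.11 to 10.02, from 35 UMIs against 1), Col17a1 (at most -4.62), Col14a1 (-4.32) and Col15a1 (-3.69). The basal keratinocyte markers summed to 16.8 CPM with MC903, 14.8 on oxazolone day 16, 45.7 on oxazolone day 10 and 240.3 in untreated mural-like cells, beside a Col17a1 of 0 CPM with MC903 and on day 16, 1.22 on day 10 and 25.2 in untreated cells. The part of these markers in the result was not tested. Blood endothelial-like cells had the highest Col15a1 outside untreated skin, with 617 CPM with MC903 (46 cells), 786 on oxazolone day 16 (80 cells) and 699 on oxazolone day 10 (109 cells).

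Schwann-like cells, the glia of peripheral nerve, carried Col28a1, a collagen known from mouse nerve: 776 CPM with MC903, 1219 on oxazolone day 16, 1134 on oxazolone day 10 and 535 in untreated cells, the highest of any class in every library. They numbered 221 with MC903, 31 on oxazolone day 16, 103 on oxazolone day 10 and 111 in untreated skin, nearly all of cluster B12 (with Mbp and Drp2 among its leading genes). Cluster B33 (led by Grik2 and Cdh19) held 12 of them with MC903, 6 on oxazolone day 16, 9 on oxazolone day 10 and 1 in untreated skin. Day 16, with under 50 cells, was not compared. Col24a1 had 159.7, 112, 184 and 205 CPM, and Col4a1 had 664, 549.6, 481 and 368 CPM in MC903, oxazolone day 16, oxazolone day 10 and untreated cells. On oxazolone day 10, 8 of 20 genes were higher and 1 lower (background 6.26% and 4.19%), led by Col20a1 (6.03, 3.52 to 11.35), Col16a1 (2.89), Col18a1 (2.56; 210.0 against 35.7 CPM) and Col8a1 (-2.29; 0.34 with doublets kept), with Col28a1 at 1.08 (0.87 to 1.30). Col20a1 had 97 UMIs on day 10 and 1 in untreated cells, and all 97 lay in the 9 cells of B33. Within B12 alone, 6 of 17 genes were higher and 1 lower on day 10 (4.29% and 4.42%), and 1 and 5 of 17 with MC903 (6.16% and 8.66%). There Col16a1 had 102 CPM on day 10 against 18.2 in untreated cells, and Col18a1 144 against 34.2. The part of B33 in the class ratios was not tested. With MC903, 2 of 19 were higher and 6 lower (6.88% and 8.59%), led by Col20a1 (4.55, with 71 of 73 UMIs in B33), Col8a1 (-2.84), Col1a1 (-2.10) and Col14a1 (-1.76). Neutrophil markers were at 0 for 6 of 6 genes in untreated Schwann-like cells and summed to 78.8 CPM with MC903, 352 on oxazolone day 16 and 269.9 on oxazolone day 10. The part of these markers in the result was not tested.

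Keratinocyte-like cells made little collagen: 0.0604% of their UMIs with MC903, 0.127% on oxazolone day 16, 0.0955% on oxazolone day 10 and 0.126% in untreated cells. Their highest collagen gene was Col17a1 in the oxazolone and untreated libraries and Col23a1 with MC903. Col17a1 had 125 CPM with MC903 (85 cells), 373 on oxazolone day 16 (102 cells), 306 on oxazolone day 10 (1320 cells) and 611 in untreated cells (1735 cells). The log2 ratios were -2.29 (-2.43 to -2.14), -0.71 and -0.9999 (-1.04 to -0.96), and day 10 lay just under 2-fold. The keratinocyte-like clusters differed between libraries: 69 of the 85 MC903 cells were in B2, and within B2 Col17a1 had 96.8 CPM with MC903, 252 on oxazolone day 10 and 209.8 in untreated cells, a smaller difference than in the class. Within B1, the largest such cluster, Col17a1 had 577 CPM with MC903 (73 UMIs), 430 on day 16 (375 UMIs), 571 on day 10 (6540 UMIs) and 1818 in untreated cells (4250 UMIs). For both oxazolone libraries the difference was larger within B1 than in the class. Over the class the 6 basal keratinocyte markers moved with Col17a1 and summed to 3414 CPM with MC903, 4767 on oxazolone day 16, 4784 on oxazolone day 10 and 7815 in untreated cells. The part of these markers in the result was not tested. Col23a1 had 178 CPM with MC903, 41.5 on oxazolone day 16, 39.5 on oxazolone day 10 and 31.2 in untreated cells (2.51, 2.35 to 2.67, for MC903), and within B2 it had 179 CPM with MC903 (69 cells), 404 on oxazolone day 16 (2 cells), 158.1 on oxazolone day 10 (61 cells) and 20.2 in untreated cells (582 cells). Within B2 it was thus above untreated skin in every treated library. With MC903, 1 of 30 measured genes was higher and 19 lower (background 4.85% and 15.7%), and 9 of the 19 were at or under the highest leukocyte level. The largest were Col8a2 (-4.59), Col8a1 (-3.97), Col14a1 (-2.89) and Col11a1 (-2.66), from 1 to 8 UMIs. With free RNA subtracted the Col14a1 ratio was 2.53. The epidermal type IV chains Col4a5 and Col4a6 had 29.0 and 54.9 CPM with MC903, 58.0 and 43.1 on oxazolone day 16, 60.9 and 55.7 on oxazolone day 10, and 76.9 and 95.4 in untreated cells. Col7a1 had 4.41, 23.3, 25.3 and 18.2 CPM in MC903, oxazolone day 16, oxazolone day 10 and untreated cells. On oxazolone day 16, 7 of 31 genes were higher and 8 lower (9.95% and 14.3%), led by Col8a1 (-3.50), Col18a1 (2.33; 148 against 29.3 CPM), Col16a1 (2.32; 102 against 20.5 CPM) and Col4a4 (2.21; -0.74 without the largest cluster). On oxazolone day 10, 6 of 34 were higher and 5 lower (13.9% and 9.06%), led by Col27a1 (2.47), Col8a1 (-1.70), Col14a1 (1.57) and Col18a1 (1.54). Col27a1 was at or under the highest leukocyte level here, as were 3 of the 5 lower genes on day 10, 1 of the 7 higher on day 16 and 5 of the 8 lower on day 16. Within B1 Col18a1 had 102 CPM on day 16, 93.9 on day 10 and 118 in untreated cells. In the same order Col16a1 had 24.1, 29.6 and 19.2 CPM, so neither gene was 2-fold higher within B1. Within B2 Col18a1 had 6.96 CPM on day 10 and 10.1 in untreated cells. The part of the cluster mix in the class ratios was not tested. Oxazolone day 16 beside day 10 had 4 of 31 higher and 3 lower (3.86% and 10.2%), and MC903 beside oxazolone day 16 had 1 of 17 higher, Col23a1, and 10 lower (8.41% and 14.5%), Col17a1 among them.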

How the data were processed

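Single-cell RNA-seq (10x Genomics 3′ chemistry) was measured in 4 libraries of mouse ear and neck skin, 1 per group. The deposited values are raw UMI counts per gene and cell barcode, made by the authors with Cell Ranger on the mm10 genome; per the file headers the version was 7.2.0 for untreated and oxazolone day 10 and 8.0.0 for oxazolone day 16 and MC903, while the submitters' processing notes name 8.0. Filtering, and any change in counting between these versions, could move levels between libraries. From these counts, barcodes with under 300 genes or over 15% mitochondrial UMIs were left out (53 to 407 per library). Doublets were scored with Scrublet in scanpy 1.11.5, and the highest scores were removed at 0.8% per 1000 barcodes (129 to 578 per library). Counts of the remaining 26051 cells were normalised to 10000 UMIs per cell, taken to logs and clustered by Leiden (leidenalg 0.10.2; 2000 variable genes without collagen genes, 30 components, 15 neighbours, resolution 1), once for all cells and once for non-leukocytes. Clusters were named from marker lists without collagen genes, needing at least 3 markers, each in 20% of the cells. The mean log2 level of the list also had to exceed the mean over clusters by 1, and lead unrelated lists by 0.5. Clusters stayed unnamed otherwise, or where more leading genes came from another list, or where shallow cells had no own marker leading.

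UMIs were summed by class and library with Python 3.11.15, numpy 2.4.6, scipy 1.17.1 and pandas 2.3.3. Levels carry exact Poisson intervals and ratios exact conditional binomial intervals, both at 95% and for counting error only. Ratios were formed where both libraries held at least 50 cells of a class and the pair at least 30 UMIs, with a floor of 3 UMIs for a count of 0. Genes without values in a class, and classes under 50 cells in a library, were not compared. No statistical test was made, since each group is 1 library. Counts simulated for 14358 genes of fibroblast-like cells (MC903 over untreated) with known log2 changes of 2 and 3 were called in the right direction in 100% of the changed genes, with 0.353% of unchanged genes called. For oxazolone day 16 (13648 genes) these were 100% and 0.543%. For oxazolone day 10 (13552 genes) they were 100%, but 98.0% for a log2 change of -2, and 0.494%. The simulated counts came from the untreated profile with counting error only, and the planted changes lay well past 2-fold. These shares therefore check the calculation and do not measure error from pools of mice, cells or clusters. Genes named in the text are those with at least 100 CPM (at most the 8 highest of a class), every fibroblast-like difference of 2-fold, the 4 largest differences of other classes and the main chains of types I, III to VI and XVII; where the text goes beyond these, genes were chosen after their values were seen. The members, marker lists and gene lists were chosen with earlier results of these data known. Alternatives in scaling, free RNA, doublets, clustering, depth and UMI minimum were tried.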

Additional observations from a re-analysis of the deposited data

Results flagged for a closer look

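Genes whose levels lay on opposite sides of untreated skin at the 2 oxazolone time points were picked out for a second look; both time points share the untreated library, each is 1 library, and the difference between them was not tested. In fibroblast-like cells Col25a1 had a log2 ratio to untreated skin of -3.48 on oxazolone day 16 and 3.00 on oxazolone day 10, from 5 and 390 UMIs against 103 in untreated cells. Col7a1 had -1.13 on oxazolone day 16 and 1.89 on oxazolone day 10 in the same cells, from 96 and 679 UMIs against 387. Pooled over the clusters B10 and B19 that every library held, Col7a1 had -1.23 on day 16 and 2.51 on day 10. Col25a1 had 4.72 on day 10 in this pool, and no ratio could be formed on day 16. The mix of B10 and B19 differed between libraries, and over all libraries Col7a1 was higher in B19 than in B10. The pooled Col7a1 signs therefore need not hold within either cluster alone, and the part of the mix in them was not tested. In perichondrium-like cells Col10a1 had -2.52 on oxazolone day 16 and 1.82 on oxazolone day 10, from 4 and 137 UMIs against 86 in untreated cells.

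Outside the stromal and epithelial classes, Col27a1 had 363 CPM in untreated T or innate lymphoid-like cells. It was carried by cluster A15, with 199 CPM with MC903 (67 cells), 397 CPM on oxazolone day 10 (24 cells) and 493 CPM in untreated skin (627 cells). The T cell clusters A8 and A26 had at most 6.59 and 5.89 CPM. Trdc, the constant gene of the delta chain of the T cell receptor, had 1151 CPM with MC903, 1234 CPM on oxazolone day 10 and 2509 CPM in untreated skin in A15. It was not particular to A15. In A26 Trdc had 318 CPM with MC903, 617 on oxazolone day 16, 652 on oxazolone day 10 and 1054 in untreated skin.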

How the results depend on the processing

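Of 127 log2 ratios past 2-fold, 113 kept their sign in every alternative run that measured them (at most 13 each) and 14 did not. In such runs 85 stayed past 2-fold throughout. A change of the UMI minimum could not alter the value of a ratio. Many ratios were not measured after thinning, where 8 stayed within their counting interval and 37 left it. Of 298 recomputed counts, 241 were within 1.5 times. The causes of the differences below were not tested. Counts are of genes past 2-fold over untreated skin, in both directions unless stated. With classes taken from markers per cell, the ratio was 0.98 for Col23a1 (mural-like, day 10) and 0.29 for Col26a1 (fibroblast-like, day 10), and MC903 counts were 18 in chondrocyte-like and 13 in perichondrium-like cells. With doublets kept, ratios were -0.48 for Col11a1 (fibroblast-like, day 16), 0.68 for Col26a1 (fibroblast-like, day 10), 0.68 for Col17a1 (perichondrium-like, day 10), 0.34 for Col8a1 (Schwann-like, day 10) and 0.0996 for Col8a1 (dermal papilla-like, MC903). The chondrocyte-like MC903 count was 16, and 8 genes were higher in fibroblast-like MC903 cells over day 16. In the fibroblast-like clusters held by every library (chosen after seeing the data), ratios were -0.59 for Col12a1, -0.34 for Col23a1 and -0.18 for Col4a2 on day 16 and 1.72 for Col25a1 with MC903. In these clusters, 1 gene was higher and 6 lower on day 16, 5 were lower on day 10, and 2 were higher on day 16 over day 10. Their mix of B10 and B19 differed between libraries. With free RNA subtracted, ratios were 2.53 for Col14a1 (keratinocyte-like, MC903) and 1.03 for Col17a1 (fibroblast-like, day 16). Keratinocyte-like counts were 12 with MC903 and 7 on day 10, and 7 fibroblast-like genes were lower on day 16 and 5 on day 10. At a mitochondrial limit of 10% Col2a1 was 0.12 and the count 14, and at resolution 0.5 they were 0.44 and 9, all in perichondrium-like MC903 cells. Without the largest cluster Col4a4 was -0.74 (keratinocyte-like, day 16), counts were 4 with MC903 and 3 on day 10 (mural-like) and 3 on day 10 (perichondrium-like), and 5 fibroblast-like genes were higher on day 16.

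With a minimum of 100 UMIs, counts were 4 with MC903 and 4 on day 10 (Schwann-like), 7 on day 16 (chondrocyte-like), 5 with MC903, 6 on day 16 and 6 on day 10 (dermal papilla-like), 2 with MC903 (mural-like), 3 on day 16 and 2 on day 10 (perichondrium-like). In fibroblast-like cells 2 were higher with MC903 over day 16, 7 lower on day 16 and 5 lower on day 10. With no minimum, they were 14 with MC903 and 15 on day 10 (Schwann-like), 17 with MC903 (dermal papilla-like), 17 on day 10 (keratinocyte-like), 16 with MC903 and 20 on day 10 (mural-like). In fibroblast-like cells 8 were higher with MC903 over day 16 and 13 lower on day 16 over day 10. With each cell thinned to 1000 UMIs, they were 4 with MC903 and 2 on day 10 (Schwann-like), 4 on day 16 and 6 on day 10 (chondrocyte-like), 6 on day 10 (dermal papilla-like), 3 with MC903, 5 on day 16 and 5 on day 10 (keratinocyte-like), 0 with MC903 and 3 on day 10 (mural-like), 1 on day 16 and 2 on day 10 (perichondrium-like). In fibroblast-like cells 11 were lower with MC903, 4 higher and 3 lower on day 16, 1 lower on day 10, 0 higher and 4 lower on day 16 over day 10, and 1 higher with MC903 over day 16. Chondrocyte-like cells had 1 cluster, so no value without it. No paired analysis was possible because each group is 1 library; no replicate could be left out. Low genes are limited by depth, since several differences rest on fewer than 10 UMIs.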

Other observations

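Col12a1 was higher in untreated melanocyte-like cells (722 CPM, 224 cells) than in untreated fibroblast-like cells (99.1 CPM); melanocyte-like cells had 287 CPM with MC903 (56 cells), 111 CPM on oxazolone day 16 (12 cells) and 156 CPM on oxazolone day 10 (67 cells). Blood endothelial-like cells had a high level of Col4a1, with 1325 CPM with MC903, 1468 CPM on oxazolone day 16 and 1212 CPM on oxazolone day 10, and of Col13a1, a transmembrane collagen, with 51.7, 105 and 147 CPM in those libraries. Within Schwann-like cells, Col20a1 lay in cluster B33, with 612 CPM with MC903, 413 CPM on oxazolone day 16 and 916 CPM on oxazolone day 10, while B12 had 1.56 CPM with MC903, none in the oxazolone libraries and 2.28 CPM in untreated skin; B33 held 1 untreated cell. These are values of single libraries and were not tested.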
